A study of Mus musculus with 3 samples.

Results

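Both samples labelled as *Oct4* DE-deleted mouse ESCs were set against the wild type (WT) sample, and the genes that stood on the same side of WT in both were described. The comparison took the 23953 genes of the deposited tables and kept the 12848 whose level reached 1 FPKM in any of the 3 samples. FPKM is the number of sequenced fragments of a gene scaled to transcript length and library depth. At that limit *Smarca2* was kept with a highest level of 1.0002 FPKM, and *Slc2a5* was left out with 0.9993 FPKM.

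RNA-seq was done on 3 samples of E14, a mouse ESC line grown with LIF and serum. The WT sample was compared with cells labelled Tam, given 4-OH tamoxifen for 48 h, and with cells labelled DoxTam, given 4-OH tamoxifen and doxycycline for 48 h. The treated cells came from clonal lines with loxP sites around the *Oct4* DE on both alleles, a lentiviral CreERT2 that tamoxifen activates, and a lentiviral mouse *Oct4* transgene that doxycycline switches on. The labels list both inducible constructs for the WT sample too, and the sources used here do not say whether it was the parental line or an untreated floxed line. Each condition has 1 sample, so no fold below has a replicate check, no test was possible, and the only check is whether Tam and DoxTam moved together. Both folds use the same WT value, so a WT value that happens to be high or low pushes both folds the same way, and tamoxifen, Cre and deletion of the enhancer cannot be told apart.

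OCT4, made by *Pou5f1*, holds ESCs in the pluripotent state together with SOX2 and NANOG. The distal enhancer (DE) lies upstream of the gene and is the enhancer in use in naive ESCs, and its conserved region CR4 carries a composite site for OCT4 and SOX2. Loss of OCT4 is known to turn ESCs toward trophectoderm, the outer layer of the blastocyst.

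The guides used to place the loxP sites are shown because they mark the ends of the targeted stretch. Both match the minus strand of mm9, the CR4 guide at chr17:35640914-35640933 and the DE3' guide at chr17:35641748-35641767, and the PAM is in capitals.
CR4 guide: cccacacccagttcctcccaGGG
DE3' guide: cagtctgaggatcccattacTGG
By the arms of the repair templates, the loxP sites were to be inserted 816 bases apart, and the segment between them ends 1223 bases before the *Pou5f1* locus (chr17:35642977-35647722). It holds 1 match to TGTTATGC, where the SOX2 part of the composite motif meets the OCT4 part, when both strands are searched. The match is on the minus strand, so it reads as its reverse complement in the 140 bases of the plus strand shown here (mm9, chr17:35640938-35641077), which start at the loxP insertion and hold it in capitals.
Segment with the composite site: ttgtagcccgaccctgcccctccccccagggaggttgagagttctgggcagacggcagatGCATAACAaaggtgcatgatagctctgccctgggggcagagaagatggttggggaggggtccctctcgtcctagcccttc
Of 32851 RefSeq promoters of 300 bases, 0.374% hold the same letters.

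*Pou5f1* stood at 664 FPKM in WT, at 529 FPKM in the sample labelled Tam and at 458 FPKM in the sample labelled DoxTam. It was below WT in both, by less than 1.5-fold in each, and it was lowest in the sample labelled as carrying induced transgenic *Oct4*. No read of the enhancer itself was measured, so these levels do not by themselves show its deletion. The order of Tam and DoxTam goes against the labels. Every direction given below is that of the samples as labelled, and reads of the mouse transgene can count toward *Pou5f1*. The log2 folds of *Pou5f1* were -0.33 in Tam and -0.54 in DoxTam. With the trend on GC content described below removed, they were -0.19 and -0.28, in the same order but closer together. The other core factors were near WT in both samples. *Sox2* was at 289 FPKM in WT, 268 FPKM in Tam and 268 FPKM in DoxTam, and *Esrrb* was at 186, 186 and 179 FPKM. *Nanog* was slightly above WT in both, with 186, 228 and 202 FPKM in the same order. *Cdx2*, which directs trophectoderm, was at 0.64 FPKM in WT, 2.82 FPKM in Tam and 0.13 FPKM in DoxTam.

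All 8 stem cell markers were at 1 FPKM or more in every sample. Summed levels of the other marker lists were low throughout. They were 5.16, 10.5 and 7.39 FPKM in WT, Tam and DoxTam for 6 trophectoderm markers, 5.31, 3.02 and 2.92 FPKM for 7 fibroblast markers, and at most 3.88 FPKM in any sample for the primitive endoderm, neural and mesoderm lists. No marker of these lists was at 0 in all samples. Blood and endothelial markers summed to 14.2, 19.7 and 14.5 FPKM, most of it *Pecam1*. As bulk samples, fewer cells of a type and less RNA per cell cannot be told apart.

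A gene was counted as lower or higher in both when its log2((FPKM + 1)/(FPKM + 1)) against WT passed 1.5-fold, 0.585 on this scale, in Tam and in DoxTam alike. This understates the change of genes at low levels. By this count 230 genes, 1.79% of the 12848 kept, were lower in both and 200 genes, 1.56%, were higher in both. Another 1689 genes passed 1.5-fold in 1 treated sample only, and 22 passed it in opposite directions, 12 of them higher in Tam and lower in DoxTam and 10 the reverse. At 2-fold in each, 55 genes were lower and 27 were higher in both.

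Small RNA genes made up 43 of the lower and 23 of the higher genes, and 31 of the 43 were listed at 0 in both treated samples. Unnamed gene models made up 22 and 36. That leaves 165 named genes that were lower and 142 that were higher in both. Tam and DoxTam were within 1.5-fold of each other for 211 of the 230 lower genes and 173 of the 200 higher genes. Of all 12848 kept genes, 1000 were 1.5-fold or more apart. By this measure the counted genes agreed no more closely than kept genes in general. The median log2 fold of all kept genes was 0.02 in Tam and -0.00 in DoxTam. After each sample was rescaled to the same total FPKM, the medians became 0.15 and 0.31, and the counts became 95 lower and 713 higher. With the small RNA genes taken out of that total, the counts were 234 lower and 206 higher. *Mir6236* alone made up 43.1% of all FPKM in WT, 35.3% in Tam and 27.4% in DoxTam.

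*Utf1*, a chromatin-bound protein of pluripotent cells and a textbook target of OCT4 and SOX2, was lower in both, at 181 FPKM in WT, 90.6 FPKM in Tam and 83.2 FPKM in DoxTam. Its log2 fold was -0.99 and -1.11, with a counting error of 0.05 on the mean of both. *Utf1* was the only member of the 32 kept core pluripotency factors to pass 1.5-fold in both, and none of them was higher in both. In all kept genes the shares were 1.79% lower and 1.56% higher.

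*Dusp9*, a phosphatase that inactivates ERK, was at 111, 51.2 and 53.7 FPKM in WT, Tam and DoxTam. *Egr1*, an immediate early transcription factor that ERK induces, was at 20.9, 8.37 and 9.82 FPKM. *Ier2*, another immediate early gene, was at 95.5, 50.8 and 47.2 FPKM. For these genes both treated samples lay close together and well below WT. *Egr1* and *Ier2* were the 2 lower members of the 21 kept genes of FGF-ERK early response and feedback, a list with none higher in both. Its median was -0.24 in Tam and -0.34 in DoxTam. Over all kept genes 1.79% were lower and 1.56% were higher in both. *Fos* and *Dusp6*, named here after their values were seen, were on opposite sides of WT. *Fos*, an immediate early gene, was at 3.19, 5.30 and 2.04 FPKM, and *Dusp6*, an ERK phosphatase, at 55.3, 53.7 and 82.3 FPKM.

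*Inhbb*, the beta-B subunit of activin and inhibin, was at 24.2 FPKM in WT, 8.24 FPKM in Tam and 12.3 FPKM in DoxTam. *Acvr2b*, a receptor for activin and Nodal, was at 22.9, 14.1 and 14.2 FPKM. They were the 2 lower members of the 17 kept genes of Nodal and activin signalling, against 1.79% of all kept genes. The list medians were above 0, at 0.09 in Tam and 0.20 in DoxTam, with 9 genes above WT in both and 5 below, and neither call was kept once the GC trend was removed. The ligand *Nodal* itself was at 49.6, 55.4 and 42.6 FPKM. *Kit*, the receptor for stem cell factor, was at 10.5, 6.30 and 6.11 FPKM. *Stra8*, a gene of the entry into meiosis that retinoic acid induces, was at 59.5, 27.9 and 31.2 FPKM. *Rara*, a receptor for retinoic acid, was at 35.3, 21.7 and 22.6 FPKM. *Tgm2*, a transglutaminase, was at 8.89, 3.59 and 3.76 FPKM.

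A few genes best known from neurons were among those lower in both. *Map1a*, a microtubule-associated protein, was at 12.03 FPKM in WT, 4.32 FPKM in Tam and 5.40 FPKM in DoxTam. *Pcsk1n*, an inhibitor of a prohormone convertase, was at 9.12, 4.41 and 3.43 FPKM. *Itpka*, a kinase of inositol trisphosphate, was at 15.5, 6.52 and 7.57 FPKM. The list of neuroectoderm and neuronal genes had 3 of 15 kept members lower in both, *Map1a*, *Stmn2* and *Ina*, and none higher, against 1.79% of all kept genes. Its medians were -0.12 in Tam and -0.25 in DoxTam, 6 of the 15 were below WT in both and 3 above. With the GC trend removed *Stmn2* kept its call and *Ina* did not, and *Map1a* had no value. *Pcsk1n* and *Itpka* are not in this list. *Stmn2*, a tubulin-binding protein, was at 203, 122 and 125 FPKM.

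**Figure D1:**
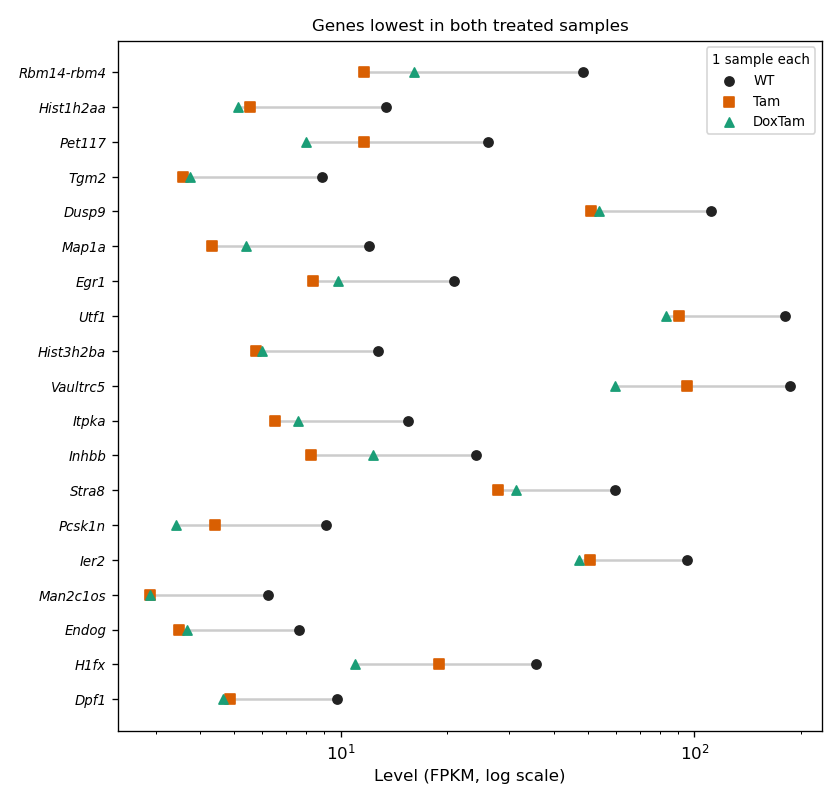
Level in FPKM (log axis) of 19 of the 20 genes furthest below WT in both, with 1 point each for WT, Tam and DoxTam and a grey line across their range. Both treated points lie left of WT for every gene, and for *Utf1* they sit at 90.6 and 83.2 FPKM against 181 FPKM in WT.

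The 20 genes furthest below WT in both had log2 folds of at least 0.88 in size in both samples. Depth, read from the smallest levels above 0, was about 12100000 fragments in WT, 5900000 in Tam and 6900000 in DoxTam. For the 15 of the 20 genes with a transcript length, the counting error of the mean log2 fold was between 0.04 and 0.33. *Hist1h2aa* had the fewest fragments, about 12.8 in Tam. *Rbm14-rbm4* (48.5, 11.7 and 16.1 FPKM) is a read-through model that shares its reads with both of its parent genes, and *Man2c1os* is antisense to another gene, so both values are uncertain. *Vaultrc5* is a short vault RNA, at 186, 95.02 and 59.8 FPKM.

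Linker histones, which bind DNA where it enters and leaves the nucleosome, appeared among the lower genes. The list of chromatin remodelers and linker histones had 7 of 28 kept genes lower in both and none higher, against the 1.79% and 1.56% of all kept genes. The 7 were *H1fx*, *Hist1h1a*, *Hist1h1b*, *Hist1h1c* and *Hist1h1d* together with *Smarcd3* and *Chd7*, which belong to chromatin remodelers. With the GC trend removed, 1 of the 25 genes of this list with a value was lower in both. None of the 5 linker histones with a value was, and their medians were then -0.51 in Tam and -0.67 in DoxTam. *Hist1h1d* was at 1611 FPKM in WT, 923 FPKM in Tam and 869 FPKM in DoxTam. *Hist1h1a* was at 1556, 1026 and 886 FPKM, and *Hist1h1c* was at 1080, 705 and 553 FPKM. *Hist1h1b* was at 386, 254 and 193 FPKM, and *H1fx* was at 35.7, 18.9 and 10.96 FPKM. In all 5 genes both treated samples were below WT.

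Of the 3 remaining linker histones at 1 FPKM or more, *Hist1h1e* (906, 607 and 508 FPKM) missed the count with a log2 fold of -0.578 in Tam. *Hist1h1t*, known from testis, was at 20.1, 12.4 and 14.6 FPKM, below 1.5-fold in DoxTam. *H1f0*, the replacement linker histone of cells that stop dividing, was above WT in both, at 23.25, 34.05 and 26.0 FPKM. Together these 8 genes, grouped after their values were seen, summed to 5618 FPKM in WT, 3579 FPKM in Tam and 3061 FPKM in DoxTam. Transcripts of replication-dependent histones carry no poly(A) tail, and the sources used here do not say whether poly(A) selection was used. Copies of these genes are close in sequence, so reads may be shared among them.

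**Figure D2:**
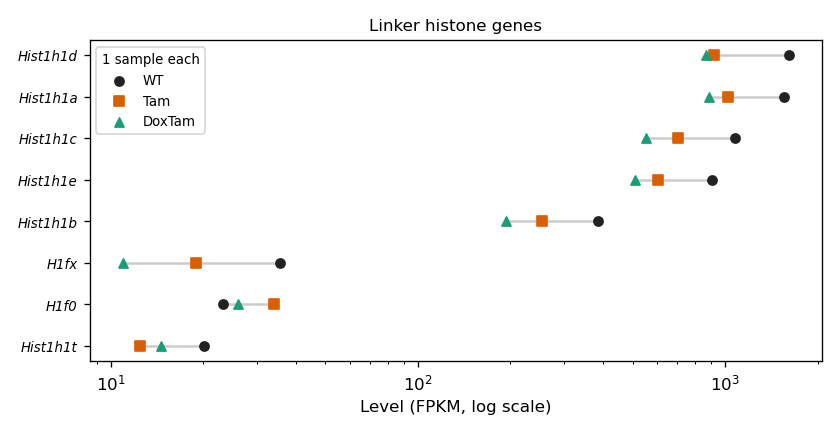
Level in FPKM (log axis) of the 8 kept linker histone genes, with 1 point each for WT, Tam and DoxTam. Both treated samples lie below WT for 7 genes and above it for *H1f0*.

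Promoters of the histone H1 genes are shown because these genes were lower together. The letters AAACACA, the element known as the H1 box, were searched on both strands from 250 bases before to 50 after each start. They occur once in the promoters of *Hist1h1b*, *Hist1h1c*, *Hist1h1d*, *Hist1h1e* and *Hist1h1t*, and in 7.18% of all promoters of that length. No match was found in the windows of *Hist1h1a*, *H1fx* and *H1f0*. The element begins 117, 112, 122 and 115 bases before the start in the first 4 genes, and it is in capitals in the 100-base stretches below, which were taken from RefSeq (GRCm38.p6) at chr13:21780663-21780762 (minus strand), chr13:23738675-23738774 (plus), chr13:23554890-23554989 (plus) and chr13:23622594-23622693 (minus).
Hist1h1b: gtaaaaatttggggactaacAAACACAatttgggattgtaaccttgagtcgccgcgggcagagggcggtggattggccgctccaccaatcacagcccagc
Hist1h1c: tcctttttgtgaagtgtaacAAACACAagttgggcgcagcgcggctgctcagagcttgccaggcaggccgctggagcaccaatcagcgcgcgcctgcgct
Hist1h1d: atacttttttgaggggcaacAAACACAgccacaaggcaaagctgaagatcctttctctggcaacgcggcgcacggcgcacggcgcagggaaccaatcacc
Hist1h1e: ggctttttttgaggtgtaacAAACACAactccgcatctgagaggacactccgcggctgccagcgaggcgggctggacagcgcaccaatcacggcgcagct
The element sits at a like distance in genes that passed 1.5-fold in both samples and in *Hist1h1e*, which did not.

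The wider list of replication-dependent histones had 6 of 57 kept genes lower in both and none higher. Over all kept genes 1.79% were lower and 1.56% were higher. Of the 6, 4 are the linker histones above. The others were *Hist1h2aa* (13.4, 5.56 and 5.12 FPKM) and *Hist3h2ba* (12.7, 5.78 and 6.01 FPKM), which encode core histones. Its median was -0.20 in Tam and -0.19 in DoxTam, but the median of the mean fold was above 0 after rescaling to the same total and after the GC trend was removed. No gene of DNA replication and mitosis was counted, 0 of 36, with medians of -0.09 and -0.08. *Mki67*, a marker of dividing cells, was at 74.4, 70.8 and 69.4 FPKM. Among G1 regulators 1 of 21 was lower and 1 was higher in both. *Ccnd3*, the D-type cyclin, was at 173, 100.1 and 109 FPKM, and *Ccne2*, an E-type cyclin, was at 3.84, 6.47 and 7.19 FPKM.

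Genes of protein synthesis and turnover were counted in small numbers. For comparison, 1.79% of all kept genes were lower and 1.56% were higher in both. *Eif3b*, a scaffold subunit of the initiation factor eIF3, was at 202, 119 and 110 FPKM and was the 1 lower gene among 58 kept translation factors. *Psmd7* (203, 125 and 102 FPKM), *Psmd3* (149, 96.2 and 81.4 FPKM) and *Psmb10* (10.1, 5.59 and 5.50 FPKM) were lower among 37 proteasome subunits, whose medians were -0.03 in Tam and 0.09 in DoxTam. *Mrps26*, of the mitochondrial ribosome, was at 56.8, 35.996 and 30.7 FPKM, with 76 of 77 kept genes of its list not counted in either direction. *Hnrnpa0*, an RNA-binding protein, was at 112, 68.7 and 56.6 FPKM. Of 84 cytoplasmic ribosomal protein genes, *Rpl30* (187, 345 and 411 FPKM) and *Rpl32* (919, 1431 and 1459 FPKM) were higher in both. Ribosomal protein genes have many processed pseudogenes, so these 2 values are uncertain.

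Genes of the integrated stress response and amino acid stress had the lowest median of the 47 lists in the mean of both samples, with -0.33 in Tam and -0.22 in DoxTam. In this list 24 of 32 kept genes were below WT in both samples, against 4603 of the 12848 kept genes. Of these, 2 passed 1.5-fold in both, against 1.79% of all kept genes. *Phgdh*, the first enzyme of serine synthesis, was at 37.5, 18.5 and 23.5 FPKM, and *Trib3*, a pseudokinase induced by ATF4 and CHOP, was at 16.9, 10.2 and 10.8 FPKM. *Atf4* itself was at 144, 151 and 171 FPKM.

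Among the genes higher in both, *Bnip3* and *B2m* stood furthest above WT by the smaller of the 2 folds among the named protein-coding genes at 5 FPKM or more. By the mean of both folds *Sap25* was further above WT, at 1.03, 2.85 and 8.91 FPKM with a mean log2 fold of 1.60. *Bnip3*, a mitochondrial protein that hypoxia induces and that marks mitochondria for autophagy, was at 17.4 FPKM in WT, 40.9 FPKM in Tam and 45.3 FPKM in DoxTam. *B2m*, the light chain of MHC class I, was at 20.3, 51.3 and 45.9 FPKM. Its log2 fold was 1.296 and 1.14. *Cd24a*, a surface glycoprotein, was at 10.3, 29.8 and 22.4 FPKM. *Lrrc34* was at 13.6, 29.05 and 30.2 FPKM. *Higd2a*, an assembly factor of the respiratory chain, was at 38.6, 71.8 and 78.3 FPKM. *Rab9*, a GTPase of transport from endosomes, was at 20.1, 37.3 and 35.8 FPKM. In each of them both treated samples were above WT.

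**Figure D3:**
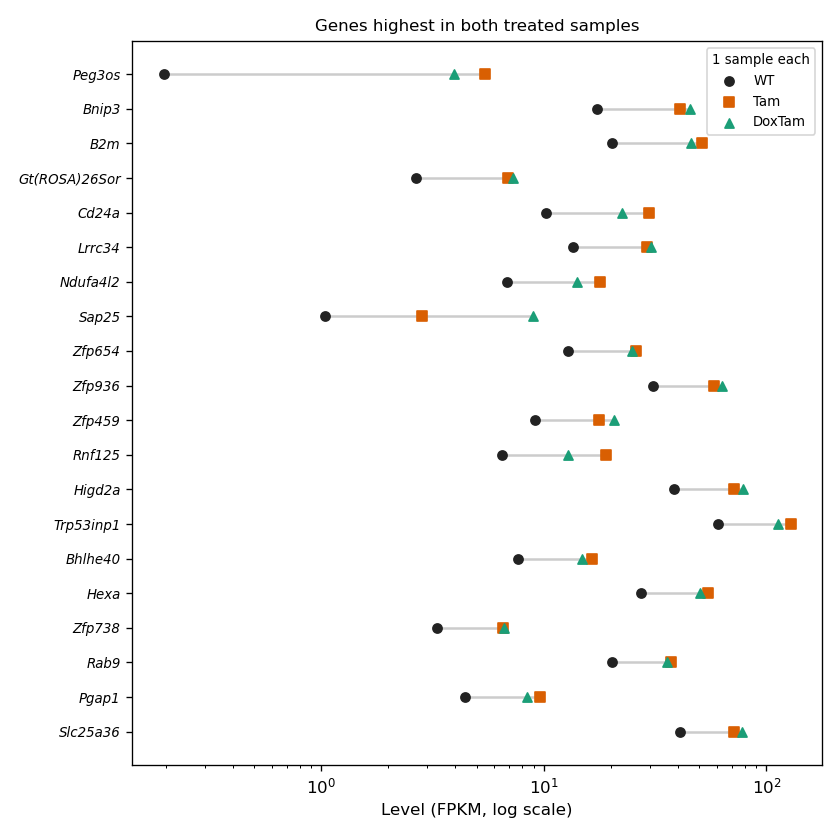
Level in FPKM (log axis) of the 20 genes furthest above WT in both, with 1 point each for WT, Tam and DoxTam and a grey line across their range. Both treated points lie right of WT for every gene, and for *Bnip3* they sit at 40.9 and 45.3 FPKM against 17.4 FPKM in WT.

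The list of glycolysis and hypoxia response had 2 of 26 kept genes higher in both, *Bnip3* and *Aldoc*, and none lower. Over all kept genes 1.56% were higher and 1.79% were lower. *Aldoc*, a glycolytic aldolase, was at 7.32, 16.7 and 12.1 FPKM. Its median was 0.33 in Tam and 0.21 in DoxTam, and 16 of its 26 genes were above WT in both, against 4877 of 12848. *Ndufa4l2*, a hypoxia-induced relative of a respiratory chain subunit, was at 6.84, 17.9 and 14.04 FPKM, and *Bhlhe40*, a repressor that hypoxia also induces, was at 7.66, 16.5 and 14.8 FPKM. *Plod2*, a collagen lysyl hydroxylase named after its values were seen, was at 20.8, 35.2 and 35.0 FPKM. Other hypoxia targets, also chosen after their values were seen, did not pass. *Vegfa* was at 25.5, 24.4 and 20.7 FPKM, *Slc2a1* at 270.1, 270.1 and 266 FPKM, and *Pdk1* at 44.8, 35.5 and 64.8 FPKM.

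Medians of lipid gene lists were above 0 in both samples and smaller in DoxTam. For cholesterol synthesis 2 of 22 kept genes were higher in both and none was lower, with medians of 0.42 in Tam and 0.16 in DoxTam. The shares over all kept genes were 1.56% higher and 1.79% lower. *Cyp51*, the lanosterol demethylase, was at 13.0, 23.8 and 20.8 FPKM, and *Nsdhl*, a sterol dehydrogenase, was at 5.74, 10.3 and 9.59 FPKM. *Sqle*, squalene epoxidase, missed the count in DoxTam with 26.9, 56.5 and 38.6 FPKM. For fatty acid synthesis and lipid handling the medians were 0.25 and 0.05. Of the desaturases in it, *Scd1* was at 5.47, 16.6 and 9.37 FPKM and *Scd2* at 36.2, 69.1 and 58.7 FPKM, and both were higher in both samples.

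Of 26 kept p53 targets, *Trp53inp1* and *Eda2r* were higher in both and none was lower, against 1.56% and 1.79% of all kept genes. *Trp53inp1*, a stress protein with a role in autophagy, was at 60.6, 129 and 112 FPKM, and *Eda2r*, a death receptor, was at 27.7, 45.3 and 43.5 FPKM. The classical targets *Cdkn1a* (18.5, 20.04 and 14.7 FPKM) and *Mdm2* (95.9, 106 and 101 FPKM) were not counted, and the medians of the list were 0.07 and -0.10. *Lats2*, a kinase of the Hippo pathway, was higher with 1.53, 5.66 and 3.28 FPKM, and *Wwc1*, an upstream member of the pathway, was lower with 21.3, 13.8 and 10.8 FPKM. *Mt1*, a metallothionein, was at 210, 338 and 374 FPKM. *Ifitm2*, an interferon-inducible membrane protein, was at 138, 212 and 211 FPKM, and with *B2m* it made up the 2 higher of 16 kept genes of interferon response and MHC class I, with none lower.

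Genes of lysosomes were gathered into a list after their values were seen, so their counts are a description only. Of 54 kept genes 5 were higher in both, against 1.56% of all kept genes, and none was lower. *Hexa*, a subunit of beta-hexosaminidase, was at 27.3 FPKM in WT, 54.9 FPKM in Tam and 50.4 FPKM in DoxTam. *Lamp2*, of the lysosomal membrane, was at 17.03, 31.0 and 29.5 FPKM, and *Asah1*, acid ceramidase, was at 23.1, 37.6 and 40.1 FPKM. The transporter *Mfsd1* was at 14.8, 37.3 and 24.6 FPKM. In the list 39 of 54 genes were above WT in both, against 4877 of 12848, with medians of 0.31 in Tam and 0.21 in DoxTam. The letters TCACGTGA, a palindrome at the centre of the element that TFEB binds, were in 7 of the 45 promoters found for these genes and in 0.974% of all promoters.

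Zinc finger genes appeared among the higher genes. Of 121 kept genes named *Zfp600* to *Zfp999*, 7 were higher in both and none was lower, against 1.56% and 1.79% of all kept genes, and 73 were above WT in both, against 4877 of 12848. With the GC trend removed, 1 of the 121 was higher and 1 was lower. *Zfp936* was at 30.8, 58.1 and 63.3 FPKM, and *Zfp654* was at 12.8, 25.9 and 24.8 FPKM. A region on chromosome 13 of mm9 was also chosen after its values were seen. From *Zfp595* (start 67413934) to *Zfp738* (end 67784449) lie 4 counted zinc finger genes, with others between them that were not counted. *Zfp459* was at 9.14, 17.8 and 20.7 FPKM, *Zfp953* at 3.10, 6.10 and 5.94 FPKM, *Zfp738* at 3.31, 6.54 and 6.62 FPKM, and *Zfp595* at 1.27, 2.42 and 3.09 FPKM. All 17 kept zinc finger genes within 1 Mb of *Zfp459* were above WT in both samples, by 0.02 to 0.89 in Tam and 0.03 to 1.099 in DoxTam on the log2 scale. The median GC content of the 15 of these with a value was 39.2%. With the GC trend removed, their medians were 0.34 in Tam and 0.21 in DoxTam. Not all stayed above the trend, such as *Zfp748* (-0.07 and -0.03) and *Zfp874b* (-0.04 and -0.18). These genes are close copies of each other, so their reads may be shared. Of all 28 kept genes within 1 Mb of *Zfp459*, the 17 included, 25 were above WT in both and 7 were counted as higher. Among the 7 was *Uqcrb*, of the respiratory chain, so the rise there was not confined to zinc finger genes.

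**Figure D4:**
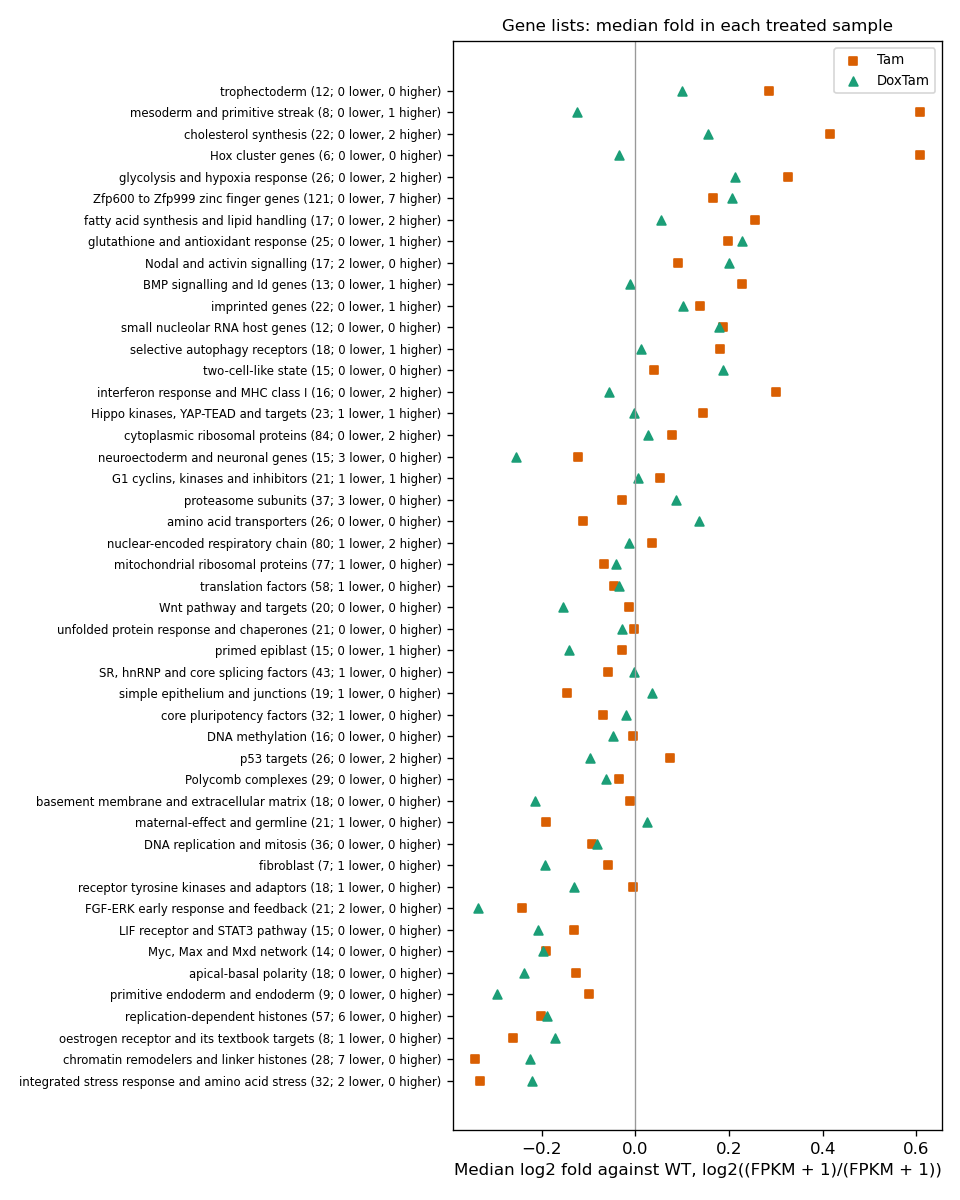
Median log2 fold against WT of the 47 gene lists in Tam and DoxTam, with 1 point per sample and, after each name, the number of kept genes and the numbers lower and higher in both. Lists are ordered by the median of the mean of both folds, and at the end with the lowest value is the stress response list, at -0.33 and -0.22.

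Lineage genes gave few counts. None of 12 kept trophectoderm genes and none of 9 endoderm genes passed in both samples. The trophectoderm list still had the highest median of the 47 lists in the mean of both samples, at 0.32. Its medians were 0.28 in Tam and 0.10 in DoxTam. Genes were kept if any sample reached 1 FPKM, so some may be kept only through a treated sample where they are high. Without that filter the median of the mean was 0.17, and with a pseudocount of 5 FPKM it was 0.18. Of the 12 kept genes of this list, 6 were above WT in both and 1 was below, against 4877 and 4603 of the 12848 kept genes. With the GC trend removed, the medians of its 9 genes with a value were 0.42 and 0.33. The only fibroblast gene counted was *Thy1*, at 4.52, 2.27 and 2.63 FPKM, and *Col1a1* was below 1 FPKM in every sample. *Id4* (2.42, 6.26 and 4.37 FPKM), which inhibits helix-loop-helix factors, *Etv1* (2.44, 4.50 and 4.16 FPKM), an ETS factor, and *Snai1* (0.52, 1.72 and 1.302 FPKM), a repressor of E-cadherin, were higher in both. *Khdc3*, a maternal-effect gene, was lower with 15.8, 4.93 and 10.005 FPKM.

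No gene was counted in either direction for several lists. The counts were 0 of 18 for apical-basal polarity, 0 of 29 for Polycomb complexes, 0 of 16 for DNA methylation, 0 of 20 for the Wnt pathway, 0 of 14 for the Myc network and 0 of 15 each for the LIF pathway and the two-cell-like state. *Llgl2*, a polarity gene that the study followed, was below WT in both samples with 84.8, 61.6 and 55.6 FPKM, a log2 fold of -0.45 and -0.60 that passed 1.5-fold in DoxTam only. *Grb7*, an adaptor of receptor tyrosine kinases, was at 20.1, 15.0 and 16.7 FPKM. With the trend on GC content described below removed, the log2 folds of *Llgl2* were -0.25 in Tam and -0.26 in DoxTam. Those of *Grb7* were then -0.28 and -0.03, and neither gene passed 1.5-fold in any sample.

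Near the targeted enhancer, 12 genes within 250 kb of *Pou5f1* were kept, and 9 of them were below WT in both samples, against 4603 of 12848. *Pou5f1* itself is included in the 12 and in the 9. *Ddr1*, a collagen receptor, was lower in both with 12.2, 7.37 and 7.68 FPKM. *H2-L* was higher, at 0.00164 FPKM in WT and at 1.53 and 1.14 FPKM in Tam and DoxTam, but MHC class I genes are close copies and its reads cannot be assigned with certainty. Within 250 kb of *Llgl2* none of 20 genes was counted, and within 250 kb of *Grb7* 1 of 9 was, the proteasome gene *Psmd3*. The 20 include *Llgl2* and the 9 include *Grb7*. The median log2 fold around *Pou5f1* was -0.28 in Tam and -0.35 in DoxTam, and the median GC content of the 10 genes there with a value was 56.8%. With the GC trend removed, the medians of these 10 were -0.19 and -0.20, and none was counted in either direction.

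GC content of transcripts moved with the result. It was 58.4% at the median of the 144 named genes lower in both with a value, 43.6% for the 125 higher in both, and 50.8% for the 10611 others. All 11376 kept genes with a GC value, named or not, were also split by GC content into 10 groups of equal size. In the highest group 76 of 1138 were lower in both and 3 were higher, and in the lowest group 3 were lower and 58 were higher. Across 11376 genes, the Spearman correlation of GC content with the log2 fold was -0.39 in Tam and -0.61 in DoxTam, and with transcript length it was 0.01 and 0.06. These points share the 3 samples, and the part of GC content in the counts was not tested.

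**Figure D5:**
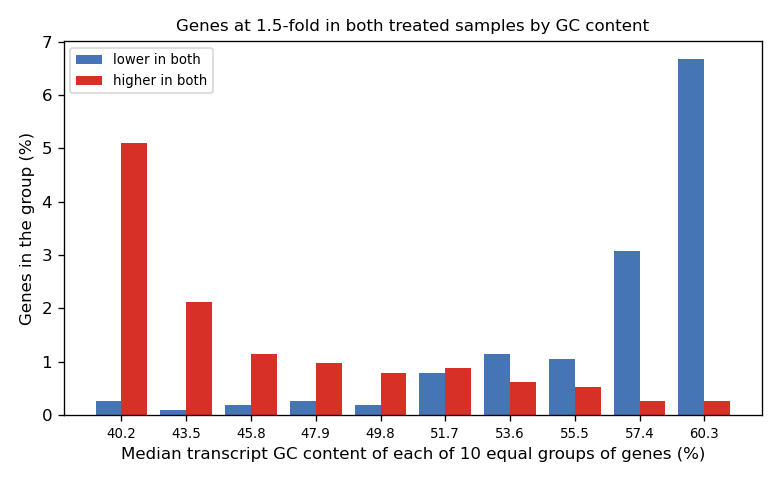
Share of genes (%) that were lower or higher in both treated samples, in 10 equal groups of genes ordered by transcript GC content, with the median GC content (%) of each group on the horizontal axis. The lower genes gather at 60.3% GC (76 of 1138) and the higher genes at 40.2% GC (58 of 1138).

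After a smooth trend on GC content was subtracted from each sample, 51 of the 156 lower genes and 55 of the 144 higher genes that have a GC value kept their call. Of the 20 genes furthest below WT in both, 12 of 15 with a value kept it, among them *Utf1* (-0.71 in both samples), *Dusp9* (-0.95 and -0.75), *Egr1* (-1.17 and -0.90) and *Stra8* (-1.06 and -0.88). *Inhbb* (-1.24 and -0.57), *Endog* (-0.64 and -0.48) and *H1fx* (-0.43 and -1.13) did not, each missing 0.585 in 1 sample. Of the 20 furthest above WT, 13 of 18 kept it, among them *Bnip3* (1.00 and 1.04), *B2m* (1.09 and 0.83), *Hexa* (1.05 and 1.01) and *Ndufa4l2* (1.43 and 1.24). *Zfp654*, *Zfp738*, *Trp53inp1*, *Pgap1* and *Slc25a36* did not. Of the 71 counted genes with a value that the naming rule took, 42 kept their call. *Ier2*, *Eif3b*, *Psmd7*, *Kit*, *Rpl30*, *Lats2* and *Mt1* were among them. *Acvr2b*, *Ina*, *Ccnd3*, *Phgdh*, *Trib3*, *Rara*, *Wwc1*, *Smarcd3*, *Psmd3*, *Psmb10*, *Thy1* and *Ddr1* lost theirs among the lower genes, and *Cyp51*, *Nsdhl*, *Scd1*, *Eda2r*, *Ccne2*, *Etv1* and *Uqcrb* among the higher genes. Some of these lie close to 0.585, such as *Scd1* (1.37 and 0.58) and *Cyp51* (0.73 and 0.50). Of the linker histones, *Hist1h1a* (-0.53 and -0.67) and *Hist1h1b* (-0.51 and -0.81) stayed below the trend in both samples but not by 1.5-fold in Tam, and *Hist1h1c* and *Hist1h1d* had no value. *Lamp2*, *Asah1* and *Mfsd1* of the lysosomal genes and *Zfp595* and *Zfp953* of the chromosome 13 group also lost their calls, while *Zfp459* kept its call. Medians of the *Zfp600* to *Zfp999* genes were then 0.07 in Tam and 0.02 in DoxTam, and those of the glycolysis and hypoxia genes were 0.39 and 0.30.

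The level of a gene in WT also moved with the counts. Of the 773 kept genes at up to 1 FPKM in WT, 46 were higher in both and none was lower, since the scale and the filter leave little room for a drop there. Of the 709 genes above 100 FPKM, 41 were lower and 18 were higher in both. 3 named genes crossed from or to 0. *Defb39* and *Fabp6* were at 1.08 and 1.06 FPKM in WT and listed at 0 in both treated samples, which at these lengths is about 3.28 and 6.13 fragments in WT. *Atad3aos*, an antisense gene, was listed at 0 in WT and at 1.495 and 2.82 FPKM in Tam and DoxTam. *Peg3os*, antisense to an imprinted gene, was at 0.20, 5.43 and 3.95 FPKM in WT, Tam and DoxTam, and the sources used here do not say how the authors' counting handled strand, so reads of the partner gene cannot be told apart.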

How the data were processed

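RNA-seq of E14 mouse ESCs was read from 2 deposited tables, 1 for each treated sample beside WT, with 1 sample per condition. The authors deposited gene levels as FPKM, which the submitters' processing notes attribute to Cufflinks 2.0.0 after TopHat and Bowtie (versions not given) on mm9. The tables also hold the authors' log2 fold, test statistic, p-value and q-value, and none was used. Every value column was mapped to a sample.

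The tables were joined on gene name and locus (27 names differed and were joined on locus). WT differed by over 1% between tables for 2 genes. Genes that reached 1 FPKM in any sample were kept, and folds used a pseudocount of 1 FPKM without further normalization. With 1 sample per condition there was no test. Named genes were those the study names, the 20 largest shared folds per direction from 5 FPKM upward (without unnamed models, small RNA and ribosomal protein genes), up to 2 counted members per list and direction, genes in opposite directions, and genes crossing 0. Genes named outside this rule are marked in the text, or are list members given for context after their values were seen. A few genes that these rules take are left out of the text. The comparison, lists and rules were chosen with earlier results of these data known.

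GC content and length came from GENCODE protein-coding transcripts of the same build (11376 genes with a value), taking the longest transcript within the gene's span. The GC trend was removed by lowess (span 0.2, statsmodels). Depth was estimated from the FPKM of single fragments in genes with 1 transcript, so fragment numbers and counting errors are approximate and cover counting error only. The code that makes the counts was tested on simulated data, which checks the code and not the calls. Promoters came from RefSeq (GRCm38.p6). Alternatives were other pseudocounts, filters and scalings, 2-fold, status OK, GC removal and each treated sample alone.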

Additional observations from a re-analysis of the deposited data

Results flagged for a closer look

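*Calcoco2*, a selective autophagy receptor, stood at 7.74 FPKM in WT, at 25.6 FPKM in the sample labelled Tam and at 2.64 FPKM in the sample labelled DoxTam. It was the only gene, leaving out small RNA, unnamed and ribosomal protein genes and genes under 5 FPKM, past 1.5-fold in opposite directions in the treated samples. Its log2 folds were 1.61 and -1.26, a gap of 2.87. With 1 sample per condition the difference was not tested.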

How the results depend on the processing

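The main counts were 230 genes lower and 200 genes higher in both. A pseudocount of 0.1 FPKM gave 384 and 433, a pseudocount of 5 FPKM gave 95 and 60, rescaling to the same total gave 95 and 713, removal of the GC trend gave 68 and 101, 2-fold in each gave 55 and 27, and a mean at 1.5-fold that exceeded the gap between treated samples gave 408 and 390. With either Tam or DoxTam left out, the counts for the remaining sample alone ran from 458 to 724 lower and from 521 to 890 higher. The other alternatives kept both counts within 1.5 times the main ones, and with genes that have a GC value only (chosen after seeing the data) they were 156 and 144. All 1208 values of the 83 counted named genes kept their sign under the alternatives that gave a value. Most of these alternatives could not turn a sign, because the genes were chosen for lying on the same side of WT in both samples. Only the rescalings, centring on the median fold and removal of the GC trend could. Of the 13 lists with a median of 0.2 or more in size, the sign turned for the replication-dependent histones (rescaling to the same total, GC trend removed) and, with Tam left out, for the mesoderm and Hox lists. No paired analysis was possible because each condition has 1 sample. With about 5900000 to 12100000 fragments per sample, counting error limits the folds of genes under 1 FPKM. It also limits those of some genes at higher levels. The counting error of the mean log2 fold was 0.33 for *Hist1h2aa* (13.4 FPKM in WT) and 0.25 for *Cox7a1* (19.9 FPKM in WT).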
